A study of Mus musculus with 40 samples.

Results

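The 39 Hox genes of the mouse were followed through differentiation of embryonic stem cells, in cells homozygous for the GLP 3A mutation and in wild-type cells. They were taken as every gene symbol that reads Hox, a cluster letter from a to d and a number, and they are 39 of the 23228 symbols listed for all 8 libraries. The Hoxa cluster on chromosome 6 held 11 of them, the Hoxb cluster on chromosome 11 held 10, and the Hoxc cluster on chromosome 15 and the Hoxd cluster on chromosome 2 held 9 each. GLP, the product of Ehmt1, is a histone H3 lysine 9 methyltransferase, and the series asks about its role in propagating that modification. RNA was sequenced from 4 groups with 2 libraries each: GLP 3A cells given 1 uM all-trans retinoic acid (RA), wild-type cells given RA, GLP 3A cells without treatment and wild-type cells without treatment. The labels place both genotypes on a mixed C57BL/6 background. Both were kept on feeder cells with serum and LIF and then spent 2 passages without feeders in 2i medium. LIF, which sustains self-renewal, was taken away when RA was given, so the effects of RA and of LIF withdrawal cannot be told apart, and no source used here gives the duration of treatment. Nor do the labels say how many lines or clones stand behind a genotype, or whether the 2 libraries of a group are separate cultures. The p-values below therefore measure the spread between these libraries, which may be technical.

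Hox proteins are homeodomain transcription factors that give cells of the body axis, the hindbrain, the spinal cord and the limbs their position. Within each cluster the genes lie in the order of their paralogue numbers, and low-numbered (3′, or anterior) genes are switched on earlier and closer to the head than high-numbered (5′, or posterior) genes, a property called colinearity. In stem cells the clusters are held silent under Polycomb repression, and retinoic acid, through its nuclear receptors, opens them from the anterior end. Here the genes are grouped by paralogue number into 8 anterior genes (1 to 3), 15 central genes (4 to 8) and 16 posterior genes (9 to 13), a grouping made for description.

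The stretches upstream of 5 genes are printed because the results turn on these genes. Hoxb1 is the only member called higher in GLP 3A, Hoxd1 is its lower counterpart of the same paralogue number, Hoxa5 had the highest level of all members in every RA-treated library, and Hoxa9 and Hoxd9 were lower in GLP 3A. Each is the 250 bases before the annotated start, 5′ to 3′ in the direction of the gene, from RefSeq on build GRCm38.p6 (the expression files use mm9). Capitals mark matches to a CCAAT box (CCAAT, either strand) or to a Hox-Pbx site (TGATNNAT, either strand).
Hoxb1, chr11:96365508-96365757, plus strand: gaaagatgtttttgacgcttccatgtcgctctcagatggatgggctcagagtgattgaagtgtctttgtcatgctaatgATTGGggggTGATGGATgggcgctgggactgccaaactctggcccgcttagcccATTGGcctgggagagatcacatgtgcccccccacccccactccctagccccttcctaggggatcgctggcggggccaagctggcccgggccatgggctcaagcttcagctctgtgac
Hoxd1, chr2:74762730-74762979, plus strand: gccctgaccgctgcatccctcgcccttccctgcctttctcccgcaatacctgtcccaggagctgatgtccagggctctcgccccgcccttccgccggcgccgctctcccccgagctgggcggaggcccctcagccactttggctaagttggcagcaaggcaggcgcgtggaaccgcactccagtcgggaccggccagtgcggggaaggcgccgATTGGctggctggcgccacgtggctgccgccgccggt
Hoxa5, chr6:52204588-52204837, minus strand: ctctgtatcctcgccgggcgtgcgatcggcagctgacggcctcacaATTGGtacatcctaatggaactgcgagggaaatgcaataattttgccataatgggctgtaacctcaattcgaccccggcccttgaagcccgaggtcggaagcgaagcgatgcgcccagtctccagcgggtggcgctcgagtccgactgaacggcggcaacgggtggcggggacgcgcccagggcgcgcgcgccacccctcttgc
Hoxa9, chr6:52227371-52227620, minus strand: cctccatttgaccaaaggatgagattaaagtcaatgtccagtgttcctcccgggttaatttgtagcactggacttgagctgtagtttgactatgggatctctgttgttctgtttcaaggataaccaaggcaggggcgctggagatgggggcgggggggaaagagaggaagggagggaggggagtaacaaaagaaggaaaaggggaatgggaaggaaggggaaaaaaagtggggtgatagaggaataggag
Hoxd9, chr2:74697513-74697762, plus strand: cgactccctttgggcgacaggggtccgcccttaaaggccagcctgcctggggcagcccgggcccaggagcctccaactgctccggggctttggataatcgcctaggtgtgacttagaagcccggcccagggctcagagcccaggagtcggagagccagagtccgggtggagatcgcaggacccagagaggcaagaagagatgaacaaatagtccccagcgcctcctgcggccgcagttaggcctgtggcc
The Hoxb1 stretch holds TGATGGAT, of the kind bound by Hox proteins with their Pbx partners, 162 bases before the start, together with 2 CCAAT boxes on the opposite strand. Hoxa5 and Hoxd1 hold 1 CCAAT box each, and the Hoxa9 and Hoxd9 stretches hold none of the motifs searched. Over the 24 upstream stretches listed for 22 Hox genes, 14 held a CCAAT box, against 33.8% of 32851 stretches of all genes, and 4 held TGATNNAT (Hoxa2, Hoxb1, Hoxb8 and Hoxd11), against 7.68%. The retinoid half-site AGGTCA occurred in 6 (Hoxb4, Hoxc4, Hoxd3, Hoxd4, Hoxd8 and Hoxd10), against 14% of all, and AGTTCA in 2 (Hoxc4 and Hoxd13), against 11.8%. The Meis site TGACAG occurred in 2 (Hoxa2 and Hoxa3), against 15.9%. TATAAA, searched on the strand of the gene, stood in 1 (Hoxd13), against 7.59%. The direct repeats of AGGTCA known as DR5 and DR2 each occurred in 3 of the 32851 stretches and in 0 of the Hox stretches. All but TATAAA were searched on both strands, a match is only a run of letters, and no match says only that those letters are not in that window. The Hox stretches had a median GC content of 58.6% and a median observed-to-expected CpG ratio of 0.721, against 52.4% and 0.373 over all.

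The files give RPKM, reads scaled to gene length and library size, and hold no read counts. Judged from the spacing of the lowest values, depth relative to replicate 1 of untreated wild type was 0.96 to 1.25 in the replicate 1 libraries and 0.44 to 0.58 in the replicate 2 libraries, so a value near 0 rests on fewer reads in replicate 2. Ehmt1 itself stood at 12.96 and 13.9 RPKM in GLP 3A with RA, 24.4 and 23.5 in wild type with RA, 14.1 and 14.3 in untreated GLP 3A and 18.4 and 17.7 in untreated wild type, and a level cannot show whether the mutation is present. The 7 stem cell markers summed to 2600 and 2494 RPKM in untreated GLP 3A and to 2913 and 2915 in untreated wild type. Pou5f1 was the largest part of this sum, and 1 of the 7, Zfp42, was lower in untreated GLP 3A, at 66.4 and 63.2 RPKM against 313.7 and 290.1 in untreated wild type (log2 difference -2.20 ± 0.29, adjusted p = 0.00893). With RA the same sum was 91.7 and 66.4 RPKM in GLP 3A, against 73.4 and 60.5 in wild type. Members differed in direction there: Nanog had 13.1 and 6.30 RPKM in GLP 3A against 1.51 and 0.814 in wild type, while Sox2 had 21.4 and 35.4 RPKM in GLP 3A against 38.3 and 47.2 in wild type. Fibroblast markers were listed because feeder cells are fibroblasts. Fn1 alone had 196.3 and 210.1 RPKM in untreated GLP 3A and 310.1 and 296.6 in untreated wild type, nearly all of the untreated sum of the 16. The other 15 summed to 105 and 157 RPKM in GLP 3A with RA, 144 and 168 in wild type with RA, 7.22 and 8.27 in untreated GLP 3A and 6.05 and 6.47 in untreated wild type, while Lum and Fap were listed at 0 in all 4 untreated libraries. In bulk RNA, fewer cells of a kind and less RNA per cell cannot be told apart.

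Before treatment the clusters were nearly silent in both genotypes. The 39 genes together summed to 3.56 and 3.72 RPKM in untreated GLP 3A and to 6.12 and 6.39 in untreated wild type. Under 1 RPKM in all 4 untreated libraries were 37 of the 39, and Hoxd3, a vertebral patterning gene, and Hoxd12, a limb gene, were listed at 0 in all 4. The exceptions lay in the Hoxc cluster. Hoxc13, which is known for its role in hair, had 1.17 and 1.09 RPKM in untreated GLP 3A and 1.89 and 1.95 in untreated wild type. Hoxc4, at the other end of that cluster, had 0.226 and 0.293 RPKM in untreated GLP 3A and 0.955 and 1.14 in untreated wild type. Posterior genes made up 77.4% and 60.2% of the summed Hox RPKM in untreated GLP 3A and 64.5% and 65.1% in untreated wild type, mostly through Hoxc13, Hoxb9 and Hoxc12.

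**Figure D1:**
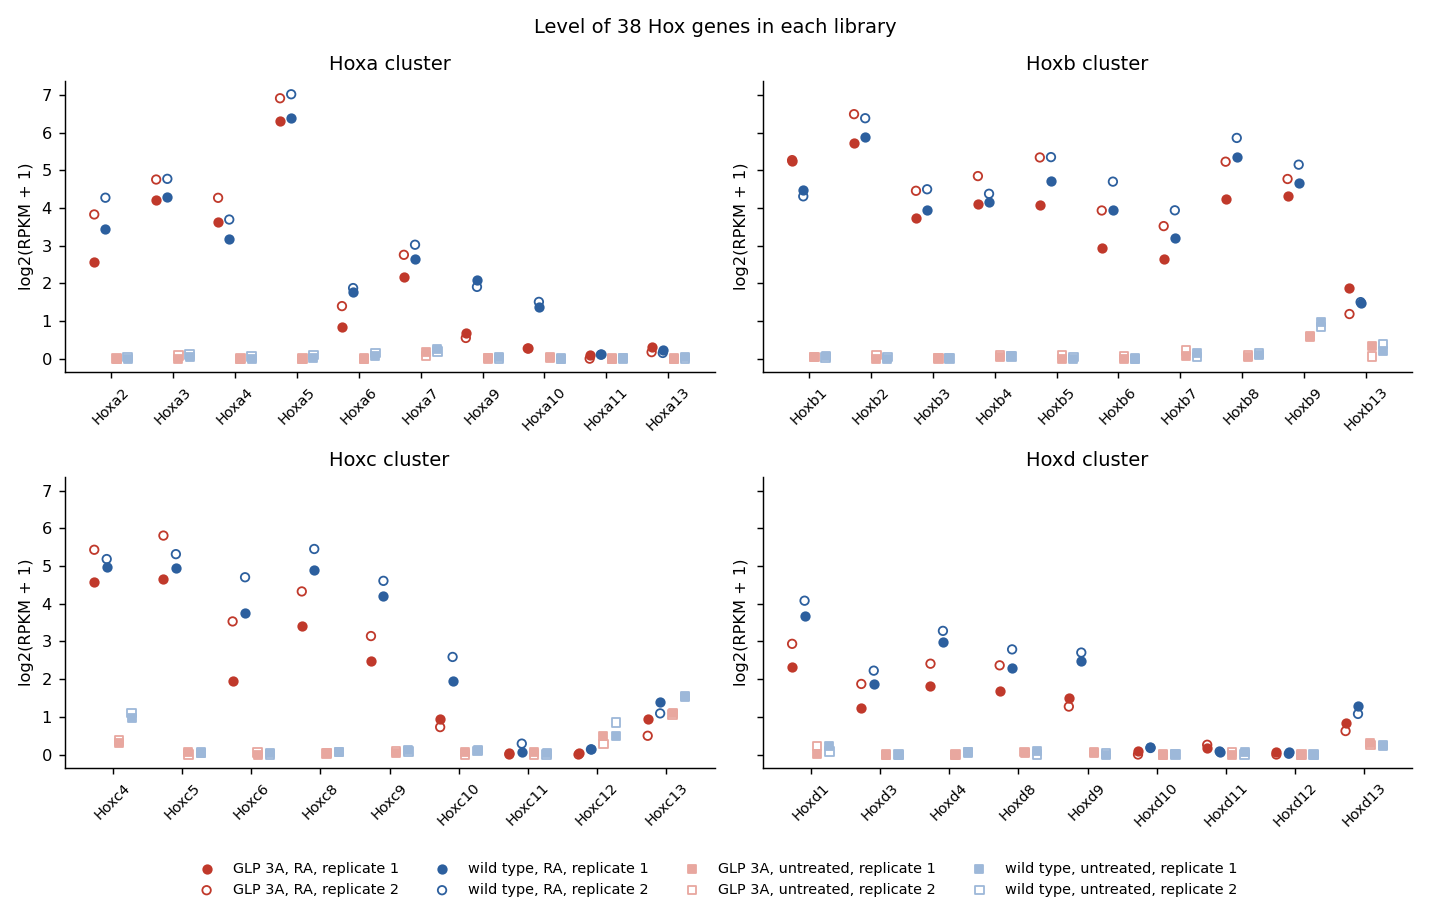
Level of 38 of the 39 Hox genes as log2(RPKM + 1), by cluster and paralogue number; circles are RA-treated and squares untreated libraries, red is GLP 3A and blue wild type, filled is replicate 1 and open replicate 2. Untreated levels lie near 0 apart from Hoxc13, Hoxc4, Hoxb9 and Hoxc12, and Hoxa5 is the highest gene in each of the 4 RA-treated libraries.

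With RA the summed Hox RPKM reached 401 and 663 in GLP 3A, against 3.56 and 3.72 without it, and 535 and 745 in wild type, against 6.12 and 6.39 without it. Both RA libraries stood above both untreated libraries for 33 of the 39 genes in GLP 3A, against 30.8% of all symbols, and for 37 of the 39 in wild type, against 31.6%. In GLP 3A this held for 8 of 8 anterior, 15 of 15 central and 10 of 16 posterior genes, and in wild type for 8 of 8, 15 of 15 and 14 of 16. Hoxc12 and Hoxc13 stood below their untreated libraries in both genotypes, where 29.9% and 30.2% of all symbols did so in GLP 3A and in wild type.

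A test was run for the 32 members that reached 1 RPKM in 2 or more libraries, with limma across 13198 genes on log2(RPKM + 1) and Benjamini-Hochberg adjustment; genes are called at an adjusted p under 0.05. On this scale a difference understates the fold change of low genes. Hoxc13 alone reached 1 RPKM in 2 untreated libraries, so the other 31 passed the filter through RA-treated libraries and had to be higher there, and the counts with RA are a description. In GLP 3A, RA raised 30 of the 32 and lowered 0, where 32.3% of the genes tested were called higher and 38.1% lower (70.4% either way). In wild type it raised 31 and lowered 0, where 33.7% were called higher and 34.8% lower (68.5% either way). At an unadjusted p under 0.05, limma also found 0 lower in either genotype. The median log2 difference of the tested Hox genes was 3.07 in GLP 3A and 3.91 in wild type, beside -0.07 and -0.03 for all genes tested.

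Anterior genes rose in all 3 clusters that hold them. Hoxb2, a hindbrain gene, had 51.9 and 88.9 RPKM in GLP 3A with RA and 57.9 and 82.4 in wild type with RA, with at most 0.0690 in any untreated library. It had the largest difference of its cluster in wild type, 6.11 ± 0.27 (adjusted p = 1.20e-05), and 6.06 ± 0.27 in GLP 3A (adjusted p = 1.34e-05). Its RA-treated levels overlapped between the genotypes. Throughout, ± gives the limma SE, from a spread pooled over all 8 libraries, 2 in each group. The untreated libraries, where most Hox genes lay near 0 and varied little, enter that spread.

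Hoxa5, which patterns the neck and is needed for lung development, was the highest Hox gene in each RA-treated library, at 78.1 and 119 RPKM in GLP 3A and 82.9 and 129 in wild type. It was listed at 0 in both untreated GLP 3A libraries and at 0.0179 and 0.0735 RPKM in untreated wild type. Its difference with RA, the largest of the Hoxa cluster, was 6.61 ± 0.26 in GLP 3A (adjusted p = 9.52e-06) and 6.64 ± 0.26 in wild type (adjusted p = 8.62e-06). Hoxc8, a gene of thoracic identity, had a difference of 3.84 ± 0.31 in GLP 3A (adjusted p = 9.61e-05) and of 5.11 ± 0.31 in wild type (adjusted p = 3.44e-05), the largest of the Hoxc cluster there. Hoxd1 had 2.51 ± 0.23 in GLP 3A (adjusted p = 1.57e-04) and 3.73 ± 0.23 in wild type (adjusted p = 3.69e-05), the largest of the Hoxd cluster there. The Hoxd cluster stayed lowest, with a summed level of 12.99 and 20.0 RPKM in GLP 3A with RA and 31.6 and 41.1 in wild type with RA. The Hoxb cluster was highest, with 184 and 303 RPKM in GLP 3A and 224 and 315 in wild type.

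At the posterior end the responses were small. Hoxb13, a prostate and tail gene, had 2.65 and 1.27 RPKM in GLP 3A with RA and 1.80 and 1.83 in wild type with RA, against 0.261 and 0.0397 in untreated GLP 3A and 0.160 and 0.304 in untreated wild type. It rose by 1.33 ± 0.23 in GLP 3A (adjusted p = 0.00242) and by 1.19 ± 0.23 in wild type (adjusted p = 0.00405), on the log2 scale, the smallest rise of the Hoxb cluster in wild type. Hoxd13, which shapes the digits, had 0.798 and 0.541 RPKM in GLP 3A with RA and 1.45 and 1.11 in wild type with RA, against 0.233 and 0.190 in untreated GLP 3A and 0.191 and 0.164 in untreated wild type. Its log2 difference was 0.46 ± 0.13 in GLP 3A (adjusted p = 0.0188) and 0.95 ± 0.13 in wild type (adjusted p = 8.77e-04), the smallest of the Hoxd genes tested. Hoxc13 was the one tested member not called with RA in either genotype. It had 0.915 and 0.412 RPKM in GLP 3A with RA and 1.63 and 1.13 in wild type with RA, and its log2 difference from the untreated cells was -0.37 ± 0.18 in GLP 3A (adjusted p = 0.1002) and -0.30 ± 0.18 in wild type (adjusted p = 0.172).

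The 7 members that were not tested are all posterior. With RA, Hoxa11 and Hoxa13, genes of the forearm and hand, had 0.0695 and 0 RPKM and 0.239 and 0.128 RPKM in GLP 3A, against 0.0869 and 0.0763 RPKM and 0.174 and 0.111 RPKM in wild type. In the Hoxc cluster, Hoxc11 had 0.0242 and 0 RPKM in GLP 3A with RA, against 0.0520 and 0.222 in wild type with RA. Hoxc12, its neighbour, had 0.0209 and 0 RPKM in GLP 3A with RA and 0.110 and 0.0988 in wild type with RA, below the 0.416 and 0.218 of untreated GLP 3A and the 0.396 and 0.804 of untreated wild type. Among the Hoxd genes, which build the limb, Hoxd10 had 0.0681 and 0 RPKM in GLP 3A with RA, against 0.153 and 0.128 in wild type with RA. Hoxd11 ran the other way, with 0.133 and 0.197 RPKM in GLP 3A with RA, against 0.0501 and 0.0574 in wild type with RA. Hoxd12 had at most 0.0446 RPKM in any library. All these values are under 1 RPKM, and how many reads they rest on is not known. A 0 in a replicate 2 library comes from the shallower libraries.

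**Figure D2:**
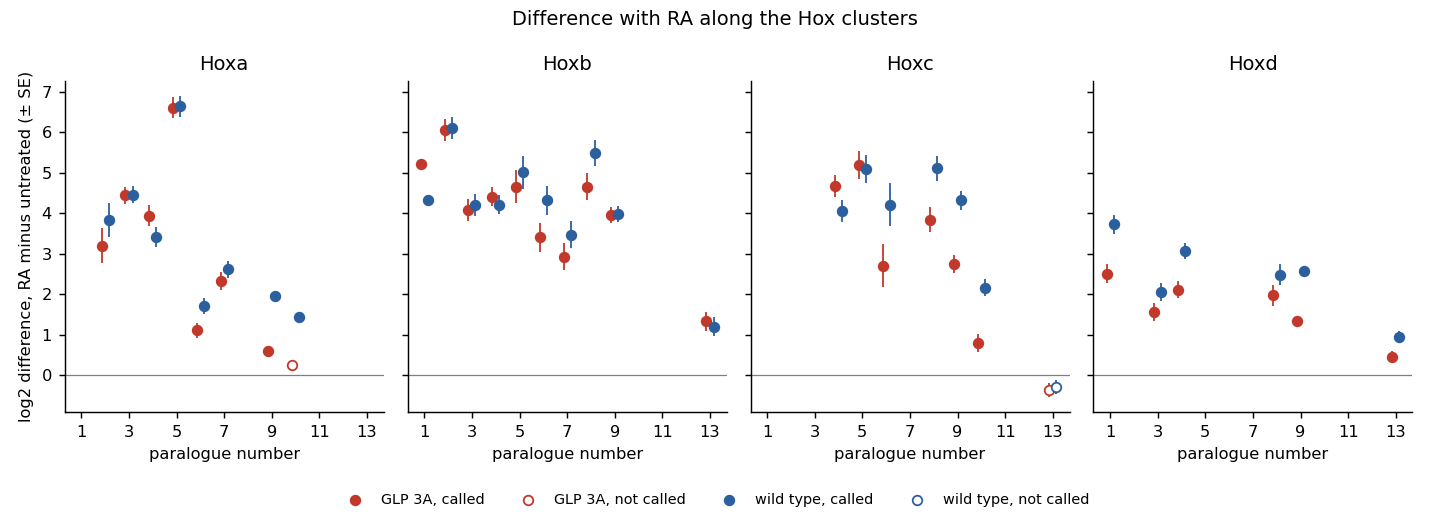
Log2 difference on the log2(RPKM + 1) scale of RA-treated minus untreated cells for 31 of the 32 tested Hox genes, by paralogue number, with GLP 3A in red and wild type in blue; bars are 1 SE and open points were not called. The points tend downwards towards paralogue 13 in each cluster. Wild type lies above GLP 3A at most genes, and most widely at Hoxa9, Hoxa10, Hoxc6 to Hoxc10, Hoxd1, Hoxd4 and Hoxd9.

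Along each cluster the difference with RA was smaller at higher paralogue numbers. Spearman's rho across genes between paralogue number and the log2 difference was -0.73 in GLP 3A and -0.73 in wild type for the 9 tested Hoxa genes, and -0.70 and -0.55 for the 10 Hoxb genes. It was -0.86 in GLP 3A and -0.46 in wild type for the 7 Hoxc genes, and -0.83 and -0.60 for the 6 Hoxd genes. These describe genes measured in the same libraries, which are not independent, and the low posterior genes are also those whose differences the scale shrinks most. The order was not strict: Hoxa5, Hoxb8 and, in wild type, Hoxc8 stood above several lower-numbered genes of their clusters. Medians by position were 4.08 in GLP 3A and 4.14 in wild type for the anterior genes, 3.84 and 4.21 for the central genes and 0.80 and 1.97 for the 9 posterior genes tested.

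How the genotypes differed after RA was asked next. Of the 32 tested Hox genes, 8 were lower in GLP 3A and 1 was higher, where 5.31% and 5.3% of the genes tested were called lower and higher. The median log2 difference, GLP 3A minus wild type, was -0.49 for the Hox genes and -0.01 for all genes tested. The Hox median was -0.18 without GLP 3A replicate 1, -0.84 without GLP 3A replicate 2 and -0.26 without wild-type replicate 2, all with RA. It was -0.36 with no filter, over 39 genes, and -0.34 with a filter of 5 RPKM, over 22. By position, 1 of 8 anterior genes was lower and 1 higher (median -0.09), 2 of 15 central genes were lower (median -0.49) and 5 of the 9 posterior genes tested were lower (median -1.17). The posterior median lay between -1.23 and -1.08 with any 1 library left out, the central median between -0.93 and -0.07, and the anterior median between -0.45 and 0.09. Of the 9 posterior genes, Hoxa9, Hoxa10, Hoxc10 and Hoxd13 passed the filter through wild type with RA only and had to be lower in GLP 3A. The posterior count and median are therefore a description, and a filter of 5 RPKM left 2 posterior genes (median -0.98). The same holds for the count of 8 lower, which includes Hoxa9, Hoxa10 and Hoxc10, and for the median of all tested Hox genes. By cluster, 2 of 9 Hoxa, 0 of 10 Hoxb, 3 of 7 Hoxc and 3 of 6 Hoxd genes were lower, and the 1 that was higher lies in Hoxb. All tested genes of chromosome 11, which holds Hoxb, had a median difference of 0.24. It was -0.003, -0.02 and -0.04 on chromosomes 6, 15 and 2, and the part of this shift in the cluster counts was not tested. Both GLP 3A libraries stood below both wild-type libraries for 19 of the 39 members, against 18.7% of all symbols, and above them for 2, Hoxb1 and Hoxd11, against 19.1%. Among the 32 tested members this held for 15 below, against 27.2% of the genes tested, and for 1 above, against 24.1%. The 15 include Hoxa9, Hoxa10, Hoxc10 and Hoxd13, whose order was fixed by the filter. Hoxa11, Hoxc11, Hoxc12 and Hoxd10, among the 19, were not tested and were listed at 0 in GLP 3A replicate 2 with RA. Of the 19, 2 were anterior, 6 central and 11 posterior.

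Paralogue 1 held both directions. Hoxb1, which defines the fourth hindbrain segment and maintains its own expression there, had 36.7 and 37.6 RPKM in GLP 3A with RA, against 21.3 and 18.8 in wild type with RA. Both GLP 3A libraries stood well above both wild-type libraries, and the log2 difference was 0.86 ± 0.09 (adjusted p = 0.00644). Without RA it had 0.0264 and 0.0284 RPKM in GLP 3A and 0.0501 and 0.0246 in wild type. Hoxd1, which in the mouse acts in pain-sensing neurons, had 4.04 and 6.66 RPKM in GLP 3A with RA, against 11.8 and 15.9 in wild type with RA, with no overlap (log2 difference -1.25 ± 0.23, adjusted p = 0.0288).

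Among paralogues 3 and 4, Hoxd4 was the 1 gene called. Hoxd4, a gene of the hindbrain and neck vertebrae, had 2.52 and 4.32 RPKM in GLP 3A with RA, against 6.92 and 8.72 in wild type with RA, with no overlap (log2 difference -1.02 ± 0.21, adjusted p = 0.0339). The paralogues Hoxb4, known for its effect on blood stem cells, and Hoxc4 had differences of 0.21 ± 0.23 and -0.08 ± 0.26 and overlapping levels. Hoxa4 had 11.3 and 18.3 RPKM in GLP 3A with RA, against 8.02 and 11.9 in wild type with RA, a difference of 0.51 ± 0.25 that was not called (adjusted p = 0.227). For Hoxa3, which builds the thymus and parathyroid, Hoxb3 and Hoxd3 the differences were -0.05 ± 0.22, -0.13 ± 0.27 and -0.50 ± 0.22, and 0 of these 3 were called. Hoxd3 and Hoxd4 are listed at one shared locus, and Hoxa3 to Hoxa6 at another, so how reads were divided among them is uncertain.

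From paralogue 6 upwards the difference was negative in every tested gene except Hoxb13 (0.03), though most were not called. For Hoxa9, Hoxa10, Hoxc10 and Hoxd13 this sign was fixed, as they passed the filter through wild type with RA only. Hoxc6 had 2.84 and 10.6 RPKM in GLP 3A with RA, against 12.6 and 25.1 in wild type with RA. The libraries did not overlap but differed widely within each genotype, and the difference of -1.50 ± 0.53 was not called (adjusted p = 0.123). Hoxb6 and Hoxa6 had 6.63 and 14.3 RPKM and 0.781 and 1.63 RPKM in GLP 3A, against 14.3 and 25.0 RPKM and 2.40 and 2.66 RPKM in wild type, and were not called either (-0.89 ± 0.36 and -0.71 ± 0.19, adjusted p = 0.170 and 0.0640). Hoxc8 had 9.69 and 19.1 RPKM in GLP 3A with RA, against 28.8 and 42.9 in wild type with RA. Its difference of -1.30 ± 0.31 was just past the threshold (adjusted p = 0.0493). The paralogues Hoxb8 and Hoxd8 differed by -0.88 ± 0.32 and -0.52 ± 0.26 and were not called (adjusted p = 0.136 and 0.239).

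Of paralogue 9, which was tested in all 4 clusters, 3 of 4 members were lower in GLP 3A. Hoxa9, a regulator of blood progenitors, had 0.592 and 0.464 RPKM in GLP 3A with RA, against 3.23 and 2.75 in wild type with RA, 17.7% of the wild-type mean. The replicates of each genotype lay close together and far from the other genotype, with a log2 difference of -1.38 ± 0.11 (adjusted p = 0.00344). Hoxc9, which sets thoracic motor neuron identity, had 4.58 and 7.84 RPKM in GLP 3A with RA, against 17.5 and 23.4 in wild type with RA, 30.4% of the wild-type mean (log2 difference -1.60 ± 0.23, adjusted p = 0.0170). Hoxd9, which acts in the limb and lumbar region, had 1.84 and 1.42 RPKM in GLP 3A with RA, against 4.56 and 5.53 in wild type with RA, 32.3% of the wild-type mean (log2 difference -1.20 ± 0.13, adjusted p = 0.00774). Hoxb9 was the exception, with 19.1 and 26.3 RPKM in GLP 3A with RA, against 24.3 and 34.5 in wild type with RA. Its genotypes overlapped, and the difference was -0.36 ± 0.20 with a 95% interval of -0.85 to 0.13 (adjusted p = 0.291).

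Both tested members of paralogue 10 were lower in GLP 3A. Hoxa10, a gene of the lumbar spine and the uterus, had 0.221 and 0.205 RPKM in GLP 3A with RA, against 1.61 and 1.84 in wild type with RA, 12.4% of the wild-type mean (log2 difference -1.17 ± 0.10, adjusted p = 0.00466). Hoxc10, which marks lumbar motor neurons, had 0.911 and 0.656 RPKM in GLP 3A with RA, against 2.87 and 5.02 in wild type with RA, 19.9% of the wild-type mean (log2 difference -1.44 ± 0.21, adjusted p = 0.0170). Hoxa10 was also the one member whose RA difference was not called in GLP 3A (0.24 ± 0.10, adjusted p = 0.0752) but was called in wild type (1.45 ± 0.10, adjusted p = 6.42e-05), the smallest of the Hoxa cluster there. In GLP 3A it was called under 4 of 9 other settings, with a pseudocount of 0.1 or 0.5 RPKM, with no filter and with no intensity trend. At paralogue 13, Hoxb13, Hoxc13 and Hoxd13 differed by 0.03 ± 0.23, -0.53 ± 0.18 and -0.45 ± 0.13, and 0 of these 3 were called. Hoxa9, Hoxa10, Hoxc10 and Hoxd13 reached 1 RPKM in no GLP 3A library and passed the filter through wild type with RA only; with no filter, limma gave adjusted p = 0.00271, 8.97e-04, 0.0251 and 0.0629 for them. The 5 members not named in this comparison, Hoxa2, Hoxa7, Hoxb5, Hoxb7 and Hoxc5, had differences from -0.66 to 0.09, and those of Hoxb2 and Hoxa5 were -0.02 and -0.10; 0 of these 7 were called.

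**Figure D3:**
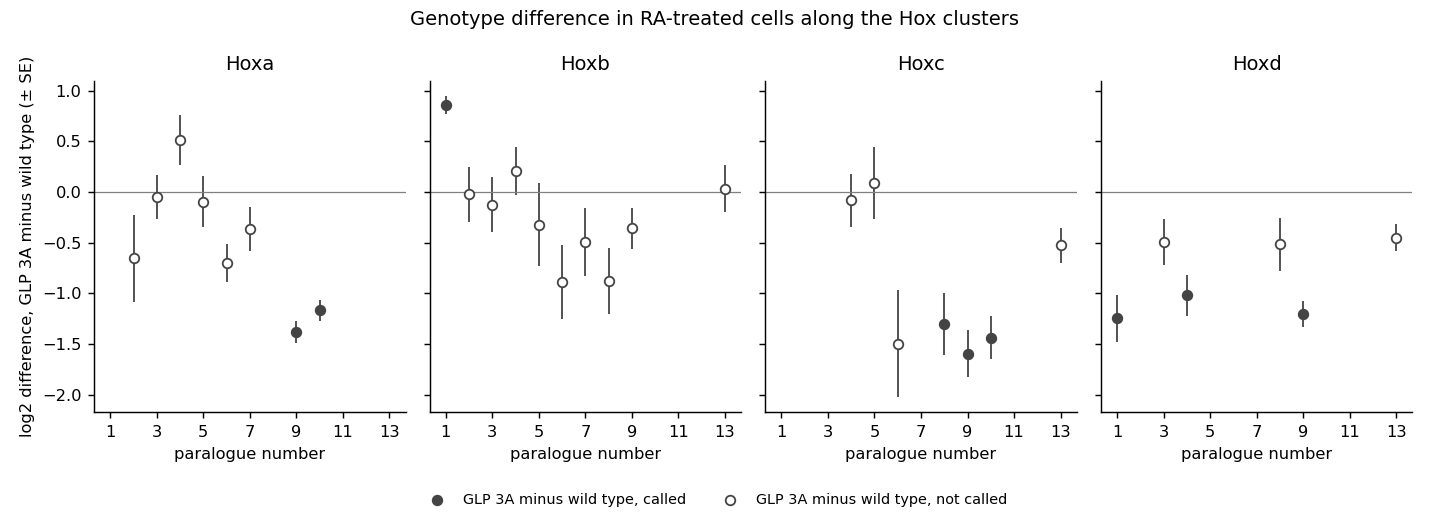
Log2 difference on the log2(RPKM + 1) scale of GLP 3A minus wild type in RA-treated cells for 31 of the 32 tested Hox genes, by paralogue number in each cluster; bars are 1 SE, filled points were called. Filled points lie below 0 at Hoxa9, Hoxa10, Hoxc8, Hoxc9, Hoxc10, Hoxd1, Hoxd4 and Hoxd9 and above 0 at Hoxb1.

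Within each replicate number the Hox median was -0.59 in replicate 1 and -0.42 in replicate 2, where that of all genes tested was -0.01 in both. For the posterior genes it was -0.97 and -1.24, for the central genes -0.61 and -0.42, and for the anterior genes -0.18 and -0.03. The posterior values include Hoxa9, Hoxa10, Hoxc10 and Hoxd13, which passed the filter through wild type with RA only. Between replicates of a group, most Hox genes were higher in replicate 2 than in replicate 1 with RA: 24 of 32 genes in GLP 3A (median log2 shift 0.62) and 27 of 32 in wild type (0.40), where 52.5% and 54.1% of all genes tested were higher. The genotype calls rest on a spread pooled over all 8 libraries, and the number of calls over all genes also changed with the libraries fitted. Fitted on the 4 RA-treated libraries alone, 0 Hox genes were called lower and 0 higher, where 11 and 4 of the 13198 genes tested were. That limma fit gave adjusted p = 0.103 for Hoxa9, 0.12 for Hoxa10, 0.143 for Hoxb1 and 0.15 for Hoxd9. Without GLP 3A replicate 2 with RA, 15 were lower, and without any 1 other library 3 to 5 were lower; Hoxa9, Hoxa10, Hoxd9 and Hoxb1 were called in all 8 such fits, while Hoxc8, Hoxd1 and Hoxd4 were each called in 1 of them, Hoxc9 in 3 and Hoxc10 in 4.

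The make-up of the clusters was set out as the share of each position in the summed RPKM. Posterior genes gave 9.80% and 6.55% of the summed Hoxc RPKM in GLP 3A with RA, against 17.8% and 17.4% in wild type with RA. In the Hoxa cluster their share was 0.812% and 0.392% in GLP 3A, against 3.30% and 2.20% in wild type. In neither cluster did the genotypes overlap. For Hoxb, posterior genes gave 11.8% and 9.08% in GLP 3A and 11.7% and 11.5% in wild type, and for Hoxd 22.2% and 10.8% in GLP 3A and 19.8% and 16.6% in wild type, and here the genotypes overlapped. The anterior share of Hoxb, which holds Hoxb1 and Hoxb2, was 54.7% and 48.6% in GLP 3A, against 41.7% and 38.98% in wild type. With 2 libraries per group an exact permutation test cannot go below p = 0.333, so no test of these shares is given.

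**Figure D4:**
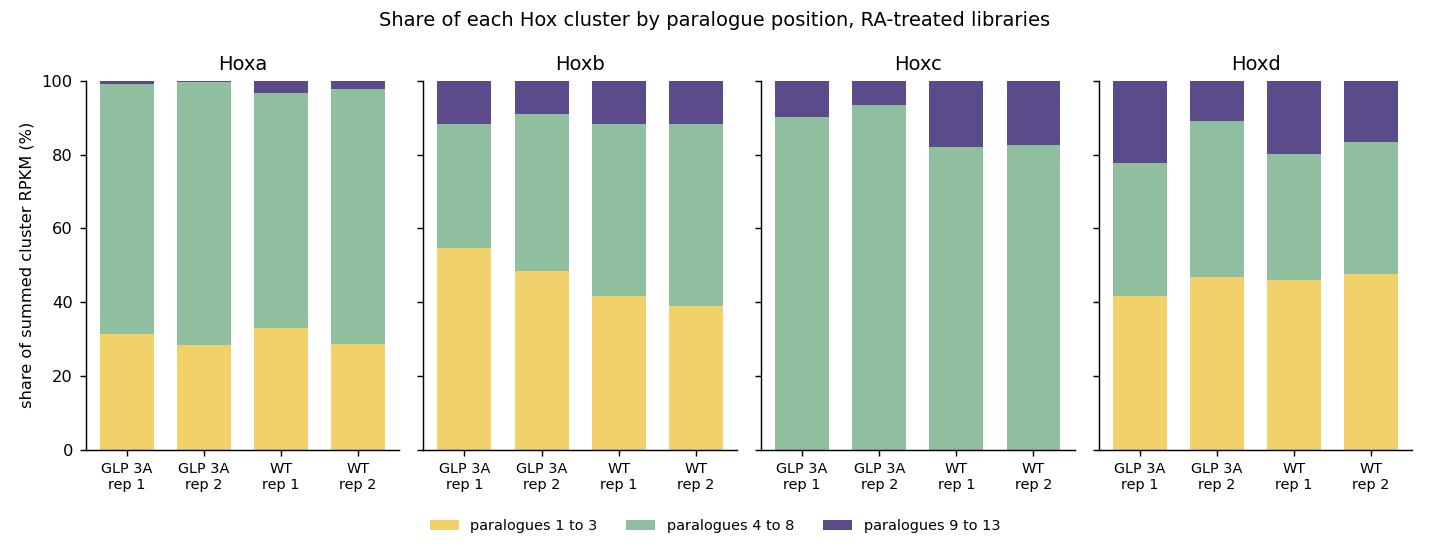
Share in percent of the summed RPKM of each Hox cluster in the RA-treated libraries, from anterior (paralogues 1 to 3, yellow), central (4 to 8, green) and posterior genes (9 to 13, purple); each bar is 1 library. The purple share of Hoxc is 9.80% and 6.55% in GLP 3A, against 17.8% and 17.4% in wild type (WT), and Hoxc has no anterior gene.

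Before RA no Hox gene was called between the genotypes. Of the 32 tested members, 0 were higher and 0 lower in GLP 3A by limma, where 7.52% and 4.15% of the genes tested were called; the median was -0.02 for the Hox genes and 0.04 for all. At an unadjusted p under 0.05, 2 were lower and 0 higher, Hoxc4 (-0.70 ± 0.26, adjusted p = 0.144) and Hoxc13 (-0.46 ± 0.18, adjusted p = 0.152). Both GLP 3A libraries stood below both wild-type libraries for 9 of the 39 members, against 20.2% of all symbols (27.7% of those tested), and above for 2, against 27.2% (40.3% of those tested). Hoxb9, among the 9, had 0.498 and 0.511 RPKM in untreated GLP 3A and 0.979 and 0.798 in untreated wild type. Fitted on the 4 untreated libraries alone, 3 of the 32, Hoxc4, Hoxc13 and Hoxb9, were called lower. In that fit 1263 of the 13198 genes tested were called lower, a share close to that of the Hox genes.

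Whether the RA response itself differed between the genotypes was tested as the difference of the responses, which shares its RA-treated libraries with the comparison above. It was lower in GLP 3A for 3 Hox genes, where 1.24% of the genes tested were lower, and higher for 1, where 0.561% were. Hoxa9 and Hoxa10, among the 3, passed the filter through wild type with RA only. With untreated levels near 0 their lower response was fixed by that filter, so the lower count is a description. Hoxa9 had a difference of responses of -1.37 ± 0.16 (adjusted p = 0.0219), Hoxa10 of -1.20 ± 0.15 (adjusted p = 0.0256) and Hoxd9 of -1.25 ± 0.18 (adjusted p = 0.0376). Hoxb1 had 0.87 ± 0.12 (adjusted p = 0.0344). For Hoxc9 and Hoxc10 the values were -1.57 ± 0.33 and -1.37 ± 0.30, and neither was called (adjusted p = 0.0731 and 0.0781). The median was -0.49 for the Hox genes and -0.06 for all genes tested. This Hox median was -0.17 without GLP 3A replicate 1 with RA, -0.84 without GLP 3A replicate 2 with RA, -0.22 without wild-type replicate 2 with RA, -0.17 with no filter and -0.20 with a filter of 5 RPKM. Each of the 4 calls was lost in 6 of the 8 fits with 1 library left out.

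Among the 39 symbols, 8 are listed at a locus they share with other symbols. Hoxa3, Hoxa4, Hoxa5 and Hoxa6 share chr6:52119060-52163596 with 2700086A05Rik, Hoxd3 and Hoxd4 share chr2:74548100-74586328 with 1700109F18Rik and Mir10b, Hoxa11 shares its locus with its antisense gene Hoxa11as, and Hoxc5 with Mir615 (build mm9 throughout). Summing the symbols of each locus left 7 Hox loci lower in GLP 3A with RA, and the Hoxd3 and Hoxd4 locus was not among them. The noncoding gene Mira, between Hoxa6 and Hoxa7, had 15.5 and 17.2 RPKM in GLP 3A with RA and 16.8 and 21.1 in wild type with RA, and rose by 3.92 ± 0.16 in GLP 3A (adjusted p = 1.06e-05) and by 3.94 ± 0.16 in wild type (adjusted p = 9.59e-06), on the log2 scale. Gm53, between Hoxb13 and Hoxb9, was expressed without RA, unlike most Hox genes around it. It had 2.77 and 2.47 RPKM in untreated GLP 3A and 5.86 and 7.41 in untreated wild type, and was lower in untreated GLP 3A (-1.07 ± 0.21, adjusted p = 0.0259). With RA it had 4.12 and 2.50 RPKM in GLP 3A, against 6.01 and 7.36 in wild type, and was not called (-0.86 ± 0.21, adjusted p = 0.0507). The even-skipped genes at the posterior ends were at most 0.340 RPKM in any library (Evx1) or listed at 0 in all (Evx2).

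The miR-10 and miR-196 genes of the clusters make microRNAs whose seeds direct them to target RNAs, Hox transcripts among them. The mature sequences are from RefSeq, 5′ to 3′, with the seed (bases 2 to 8) in capitals; they are shown because each pair comes from different clusters and shares its seed.
miR-10a-5p: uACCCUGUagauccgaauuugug
miR-10b-5p: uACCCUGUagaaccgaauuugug
miR-196a-5p: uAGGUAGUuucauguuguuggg
miR-196b-5p: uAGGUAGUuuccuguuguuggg
The miR-10 genes lie beside paralogue 4 in Hoxb and Hoxd, and the miR-196 genes near paralogues 9 and 10 in Hoxa, Hoxb and Hoxc. Values of such short genes in a library of long RNA are unsteady. Mir10b was listed at 0 in all 8 libraries, Mir10a at 25.5 RPKM in GLP 3A replicate 2 with RA and at 0 in the other 7, and Mir196b and Mir196a-2 at 42.5 and 46.7 RPKM in wild-type replicate 2 with RA and at 0 in the other 7. Mir196a-1 ranged from 53.7 to 209 RPKM over the 8 libraries and was not called in any comparison.

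Genes just outside the clusters were compared by taking the 5 nearest tested ones on each side. Those of Hoxb differed between the genotypes: 3 of 10 were higher in GLP 3A with RA (median 0.47), where 5.3% of all genes tested were, and 5 of 10 without RA (median 0.61), where 7.52% were. Calcoco2, a selective autophagy receptor gene, had 14.3 and 5.35 RPKM in GLP 3A with RA, against 1.86 and 1.021 in wild type with RA (log2 difference 2.04 ± 0.39, adjusted p = 0.0306), and 1.96 ± 0.39 without RA (adjusted p = 0.0289). Snf8, of the ESCRT-II complex, and Ube2z, a ubiquitin-conjugating enzyme, were higher by 0.76 ± 0.10 and 0.53 ± 0.11 with RA (adjusted p = 0.0147 and 0.0382). Over the 1114 tested genes of chromosome 11 the median genotype difference was 0.24 with RA and 0.24 without RA, while on chromosomes 6, 15 and 2 it lay between -0.04 and 0.03. Next to Hoxa, Hoxc and Hoxd, at most 1 of 10 neighbours was called in either state. Hoxb1 and the other Hoxb genes lie on chromosome 11, and the part of this shift in their genotype differences was not tested.

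Regulators and partners of the Hox genes were counted by list, to be read beside the shares of all genes tested: 32.3% rose and 38.1% fell with RA in GLP 3A, 33.7% rose and 34.8% fell in wild type, and 5.3% were higher and 5.31% lower in GLP 3A than in wild type with RA. Of 19 tested retinoid pathway genes, 12 rose and 3 fell with RA in GLP 3A, and 14 rose and 2 fell in wild type. Rarb, a receptor gene that RA induces, had 15.2 and 18.8 RPKM in GLP 3A with RA and 18.9 and 21.4 in wild type with RA, and Cyp26a1, which breaks RA down, had 185 and 126 RPKM in GLP 3A and 218 and 125 in wild type. Between the genotypes with RA, 2 of the 19 were lower. Crabp1, which binds RA in the cytoplasm, had 10.7 and 28.5 RPKM in GLP 3A, against 184 and 155 in wild type (log2 difference -3.19 ± 0.39, adjusted p = 0.0112), and Rdh10, which makes the precursor of RA, 15.9 and 19.2 RPKM in GLP 3A, against 44.2 and 48.0 in wild type (-1.35 ± 0.10, adjusted p = 0.00281). Their part in the Hox differences was not tested.

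Of the 9 tested Meis, Pbx and Pknox genes, whose proteins bind DNA together with Hox proteins, 7 rose and 1 fell with RA in GLP 3A, and 7 rose and 0 fell in wild type. With RA, 0 of the 9 differed between the genotypes by limma; Meis1 had 57.4 and 84.9 RPKM in GLP 3A and 64.6 and 75.5 in wild type. Cdx1, a caudal gene that acts on Hox genes, had 16.9 and 4.43 RPKM in GLP 3A with RA, 3.96 and 2.39 in wild type with RA, 11.1 and 9.93 in untreated GLP 3A and 25.9 and 27.9 in untreated wild type; its RA difference was not called in GLP 3A (-0.22 ± 0.52, adjusted p = 0.721), and it fell in wild type (-2.77 ± 0.52, adjusted p = 0.00344); the difference of these responses was not called (2.54 ± 0.73, adjusted p = 0.127). Of 31 Polycomb genes, 0 were higher and 1 lower in GLP 3A with RA, Kdm2b, which brings the complex to CpG islands (-0.44 ± 0.10, adjusted p = 0.0492). Without RA 2 of the 31 were higher and 2 lower, where 7.52% and 4.15% of all genes tested were. Of 8 Trithorax and H3K27 demethylase genes, 1 was lower with RA, Rbbp5, a subunit of H3K4 methyltransferase complexes (-0.39 ± 0.08, adjusted p = 0.0329).

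Single markers of other cells moved with some of these comparisons; with RA, 5.3% of all genes tested were higher and 5.31% lower in GLP 3A. Of the 12 tested fibroblast markers, 1 was higher in GLP 3A with RA, Col1a1, and 1 lower, Pdgfra, a mesenchymal receptor, at 2.71 and 3.41 RPKM in GLP 3A against 10.9 and 8.65 in wild type (-1.40 ± 0.14, adjusted p = 0.00644). Of the 9 endoderm markers, 1 was lower, Sox17, at 8.49 and 7.54 RPKM in GLP 3A against 28.4 and 14.98 in wild type (-1.27 ± 0.27, adjusted p = 0.0373); the 11 listed summed to 148 and 105 RPKM in GLP 3A against 394 and 111 in wild type. Of the 8 neural markers, 1 was lower, Sox1, at 0.979 and 3.96 RPKM in GLP 3A against 11.2 and 9.07 in wild type. Among the 7 stem cell markers, Nanog and Tdgf1 were higher in GLP 3A with RA (2.25 ± 0.31 and 1.80 ± 0.32, adjusted p = 0.0146 and 0.0261). Their part in the Hox differences was not tested.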

How the data were processed

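Total RNA of 8 libraries was sequenced from single ends, and the 32 other samples of the series were not analysed here. The authors deposited 1 RPKM value per gene symbol and library. Bowtie 0.12.7, SAMtools, TopHat, Cufflinks and build mm9 are named per the submitters' processing notes, with no role given. Counts and total read numbers are not given, so depth is known only as a ratio between libraries. Of 23240 symbols, the 23228 listed in all 8 files were used. Values were tested as log2(RPKM + 1) with limma 3.58.1 in R 4.3.3 (moderated test with intensity trend, 4 group means, all 8 libraries, genes with 1 RPKM or more in 2 or more libraries), with Benjamini-Hochberg adjustment over 13198 genes. Every adjusted p in the text comes from this test unless another filter or set of libraries is named with it. Errors are limma standard errors from a spread pooled over all 8 libraries, with 2 libraries a group. The fits were checked on simulated data. The labels do not say what a shared replicate number marks, and the main fit has no block for it. Alternatives were other pseudocounts, filters and scalings, no trend, fewer libraries, a replicate block, summed loci and each library left out. Per-library values were given for members called between genotypes, those with the largest and smallest wild-type RA difference of each cluster, paralogue 1, members not tested or not called, and some that complete a paralogue group. The members and lists were chosen with earlier results of these data known. Promoter and microRNA sequences came from RefSeq tables of GRCm38.p6, in which upstream stretches of 22 of the 39 genes were found. A few genes that this rule or the lists cover are not reported here or drawn in the plots of single genes; they stay in counts and sums.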

Additional observations from a re-analysis of the deposited data

Results flagged for a closer look

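The RA response differed between the genotypes, by a limma test of the difference of responses, in 4 of the 32 Hox genes tested (1 higher and 3 lower in GLP 3A), where 0.561% of all genes tested were higher and 1.24% lower. Each of the 4 calls was lost in 6 of the 8 fits with 1 library left out. This difference, GLP 3A minus wild type on the log2(RPKM + 1) scale, was -1.37 for Hoxa9, -1.2 for Hoxa10, -1.25 for Hoxd9 and 0.873 for Hoxb1 (adjusted p = 0.0219, 0.0256, 0.0376 and 0.0344). With RA, both GLP 3A libraries stood below both wild-type libraries for the 3 posterior genes and above them for Hoxb1. Hoxa9 and Hoxa10 passed the filter through wild type with RA only, so for them this order was fixed. Untreated levels were at most 0.0506 RPKM in GLP 3A and 0.0501 RPKM in wild type for all 4, so the difference rests on the RA-treated libraries. Groups of 2 libraries were not examined for outlying samples.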

How the results depend on the processing

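Over all alternatives 0 results changed sign while called. Of the Hox genes lower in GLP 3A with RA, 8 as reported, 5 were called with a pseudocount of 0.1 RPKM, 3 with a filter of 5 RPKM (Hoxa9, Hoxa10, Hoxc10 and Hoxd9 were then not tested) and 0 with only the 4 libraries compared, where the 1 higher gene also became 0. Leaving out 1 library gave 3 to 15, the most without GLP 3A replicate 2 with RA. For untreated cells, 0 lower as reported, a pseudocount of 0.1 RPKM gave 1 (Hoxc4), the 4 libraries alone 3, and leaving out 1 library 0 to 1. With RA, 0 lower as reported, quantile normalization gave 1 in GLP 3A and 1 in wild type (Hoxc13), no filter gave 1 in wild type (Hoxc12), and leaving out 1 library gave 0 to 1 in GLP 3A. For the difference of responses, 1 higher and 3 lower as reported, a pseudocount of 0.1 RPKM gave 0 and 0, no filter gave 0 higher and a filter of 5 RPKM 0 lower, and leaving out 1 library gave 0 to 2 higher and 0 to 10 lower. The causes were not tested. Same-numbered libraries deviated together (correlations of 0.169 to 0.355 over the 6 pairs of groups), and all replicate 2 libraries were the shallower ones; with 2 numbers and no label for what they mark, this is a hint from the data, not the design. With the replicate block, 9 Hox genes were lower with RA (Hoxa6 added) and 2 in the difference of responses (Hoxd9 lost); it changed no other count of Hox calls.

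Over all genes, 993 higher and 548 lower without RA became 2187 and 1263 on the 4 untreated libraries alone, and 141 to 1456 and 65 to 842 with 1 library left out; quantile normalization left 579 higher. With RA, 700 higher and 701 lower became 4 and 11 on the 4 treated libraries alone, and 145 to 1182 and 152 to 1249 with 1 left out. The 4262 genes higher with RA in GLP 3A were 2828 with the filter of 5 RPKM. The difference of responses, 74 higher and 164 lower, became 49 and 109 with the pseudocount of 0.1 RPKM, 48 and 98 under quantile normalization, and 4 to 444 and 7 to 684 with 1 library left out. The share of higher among genes called without RA, 64.4%, was 50.2% under median-of-ratios scaling and 53.2% under quantile normalization. Depth limits the posterior genes most, many of which stood near 0 in the shallower replicate 2 libraries.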
